A study of Mus musculus with 15 samples.

Results

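The 8 genes described here encode components and receptors of complement: the C1q chains C1qa, C1qb and C1qc, the central component C3, the alternative pathway proteins factor B (Cfb) and properdin (Cfp), and the receptors C3ar1 and C5ar1. They were taken by symbol from a table of read counts with 50508 gene symbols, where all 8 were found. All 8 also passed the filter on low counts that left 13800 symbols for testing.

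The counts come from 15 RNA-seq libraries of myeloid cells sorted from mouse tumours of the Lewis lung carcinoma line (LLC), taken on day 10. Mock-LLC tumours grew from the line labelled Mock, and SULT2B1b-LLC tumours from LLC cells with SULT2B1b, an enzyme that sulfates cholesterol and oxysterols. From each tumour type, Ly6Clow cells and Ly6Chigh cells that were also CD11c+ and MHC-II+ were compared. Mock-LLC tumours 1 to 4 gave 4 libraries of each population, and SULT2B1b-LLC tumours gave 4 of Ly6Chigh cells (tumours 1 to 4) and 3 of Ly6Clow cells (tumours 2 to 4). Host strain, age and sex, the promoter driving SULT2B1b and whether the lines are clones were not stated in the labels, nor was it stated that each tumour grew in its own mouse, so a p-value reflects only how these samples varied. The gate of the Ly6Clow cells is named only by Ly6C.

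Complement is a cascade of blood and tissue proteins that tags targets for uptake, recruits leukocytes and can lyse membranes. C1q opens the classical pathway, C3 is the component on which all activation routes converge, and factor B with properdin builds and steadies the enzyme of the alternative pathway that cleaves more C3. Most circulating components come from the liver, but macrophages and dendritic cells are the main source of C1q, myeloid cells make properdin, and myeloid cells carry the receptors for the released fragments C3a and C5a.

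On the GRCm38 assembly (GENCODE release M21), the C1q genes lay side by side on the minus strand of chromosome 4 within 18675 bp, C1qb at chr4:136880129-136886187, C1qc at chr4:136889804-136893065 and C1qa at chr4:136895917-136898803. Each had 3 exon blocks. C3 lay at chr17:57203970-57228136 with 42 exon blocks and Cfb at chr17:34856374-34862518 with 17. Cfp lay at chrX:20925454-20931555, C3ar1 at chr6:122847138-122856161 and C5ar1 at chr7:16246743-16259540. Of the exon bases of Cfb, 79.5% are shared with Gm20547, a readthrough gene of the same strand that joins Cfb and C2. Gm20547 had 0 counts in all 15 libraries, and the handling of reads in shared exons is not given in the sources used here, so the level of Cfb may be understated.

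RefSeq promoter windows on GRCm38.p6, 250 bases before to 50 after the start, were found for 6 of the 8 genes, not for C1qa and Cfb. Those of C1qb (chr4:136886151-136886450), C1qc (chr4:136892865-136893164) and C3 (chr17:57228087-57228386), all on the minus strand, are shown because these genes differed most between the groups, C1qb and C1qc in one order and C3 in another. Capitals mark matches to the 5 motifs searched on both strands.
C1qb: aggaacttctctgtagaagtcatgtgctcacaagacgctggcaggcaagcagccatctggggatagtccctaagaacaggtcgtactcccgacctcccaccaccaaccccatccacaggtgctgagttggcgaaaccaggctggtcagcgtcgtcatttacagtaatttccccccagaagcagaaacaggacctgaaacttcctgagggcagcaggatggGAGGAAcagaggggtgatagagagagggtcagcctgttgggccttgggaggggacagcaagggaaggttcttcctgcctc
C1qc: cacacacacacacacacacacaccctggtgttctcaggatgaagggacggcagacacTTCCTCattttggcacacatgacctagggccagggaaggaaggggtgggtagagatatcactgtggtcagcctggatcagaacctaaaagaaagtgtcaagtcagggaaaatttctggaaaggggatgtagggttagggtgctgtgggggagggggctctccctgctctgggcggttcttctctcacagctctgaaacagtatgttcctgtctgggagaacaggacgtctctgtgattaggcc
C3: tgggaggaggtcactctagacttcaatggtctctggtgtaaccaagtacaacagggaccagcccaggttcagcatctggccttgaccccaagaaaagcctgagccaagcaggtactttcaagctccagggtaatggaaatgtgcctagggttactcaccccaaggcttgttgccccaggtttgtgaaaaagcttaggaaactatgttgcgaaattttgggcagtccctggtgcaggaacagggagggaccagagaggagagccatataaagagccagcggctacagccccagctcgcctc

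The C1qb and C1qc windows each held the core bound by PU.1 (GAGGAA), a transcription factor of myeloid cells. In C1qb it lay at bases -30 to -25 from the start. In C1qc it lay at -193 to -188 on the opposite strand. The same core was in 28.27% of 32817 promoter windows of this length. None of the other motifs was found in either, and the C3 window held none of the 5: the STAT site GAS (TTCNNNGAA, in 8.29% of windows), the interferon response core (GAAA, any 2 bases and GAAA again, 3.43%), the AP-1 site (TGANTCA, 7.81%) and the DR4 element (AGGTCA repeated after 4 bases, 0.02%). No match overlapped another, and a match describes only the letters. The RefSeq start of C1qc lies 151 bases inside the GENCODE gene, that of C1qb 13 bases before it.

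Totals ran from 19792494 to 39284008 counts in the 7 Ly6Clow libraries and from 2617878 to 10626954 in the 8 Ly6Chigh ones, so population and depth cannot be told apart. Ly6Chigh cells of SULT2B1b-LLC tumour 1 gave a library unlike the rest, with the lowest total and 24540 genes with a count against 13123 to 17737 in the other Ly6Chigh libraries. The C1q, Cd93 and Lrp1 calls between tumour types in Ly6Chigh cells are given with and without it. Marker calls and DESeq2 calls are given only with it. Levels are given in CPM, a count relative to its TMM-adjusted library total, and adjusted p-values come from edgeR's quasi-likelihood test with Benjamini-Hochberg adjustment over all 13800 genes (threshold 0.05). The libraries held myeloid markers as labelled: macrophage markers summed to 4429 to 7635 CPM and monocyte markers to 2134 to 6365 CPM, against at most 9.54 CPM for T and NK cell and 23.5 CPM for B cell markers. The 8 genes together took 0.949% to 1.38% of the counts in Ly6Clow libraries and 0.557% to 0.885% in Ly6Chigh libraries. In these bulk samples, fewer expressing cells and less RNA per cell cannot be told apart.

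The C1q transcripts were abundant everywhere, higher in Ly6Clow than in Ly6Chigh cells in both tumour types, and higher in Ly6Chigh cells of SULT2B1b-LLC than of Mock-LLC tumours. C1qa encodes the A chain of C1q. It was at 1981, 1884, 1467 and 1609 CPM in Ly6Clow cells of Mock-LLC tumours 1 to 4. In Ly6Clow cells of SULT2B1b-LLC tumours 2 to 4 it was at 2479, 2634 and 2518 CPM. Every SULT2B1b-LLC Ly6Clow library thus lay above every Mock-LLC one. The ranges of the tumour types were free of overlap for 16.1% of all genes in Ly6Clow and 5.53% in Ly6Chigh cells. In Ly6Chigh cells C1qa was at 519, 553, 519 and 536 CPM in Mock-LLC tumours 1 to 4. In the SULT2B1b-LLC tumours 1 to 4 it was at 977, 1275, 1180 and 1000 CPM. The order of the group means was Mock-LLC Ly6Chigh (531.5 ± 16.4 CPM, SD, n = 4), SULT2B1b-LLC Ly6Chigh (1108 ± 144, n = 4), Mock-LLC Ly6Clow (1735 ± 238, n = 4) and SULT2B1b-LLC Ly6Clow (2544 ± 80.8, n = 3), and no neighbours in it overlapped.

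C1qb, the gene of the B chain, was at 3971, 3897, 3318 and 4015 CPM in Mock-LLC Ly6Clow cells and at 5412, 5635 and 5369 CPM in SULT2B1b-LLC Ly6Clow cells. It was at 1284.5, 1513, 1691 and 1466 CPM in Mock-LLC Ly6Chigh cells and at 2124, 3322, 2637 and 2651 CPM in SULT2B1b-LLC Ly6Chigh cells. The group order was that of C1qa, with an overlap only between SULT2B1b-LLC Ly6Chigh and Mock-LLC Ly6Clow libraries. C1qc, the gene of the C chain, was at 1413, 2106, 1696 and 2184 CPM in Mock-LLC Ly6Clow cells and at 2693, 2758 and 2785 CPM in SULT2B1b-LLC Ly6Clow cells. In Ly6Chigh cells it was at 613, 648, 560.5 and 552 CPM in Mock-LLC tumours and at 900.4, 1140.2, 1051 and 1052.5 CPM in SULT2B1b-LLC tumours. Its groups kept the same order, and no neighbours overlapped. Between tumour types, 16.1% of all genes in Ly6Clow and 5.53% in Ly6Chigh cells were free of overlap.

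**Figure D1:**
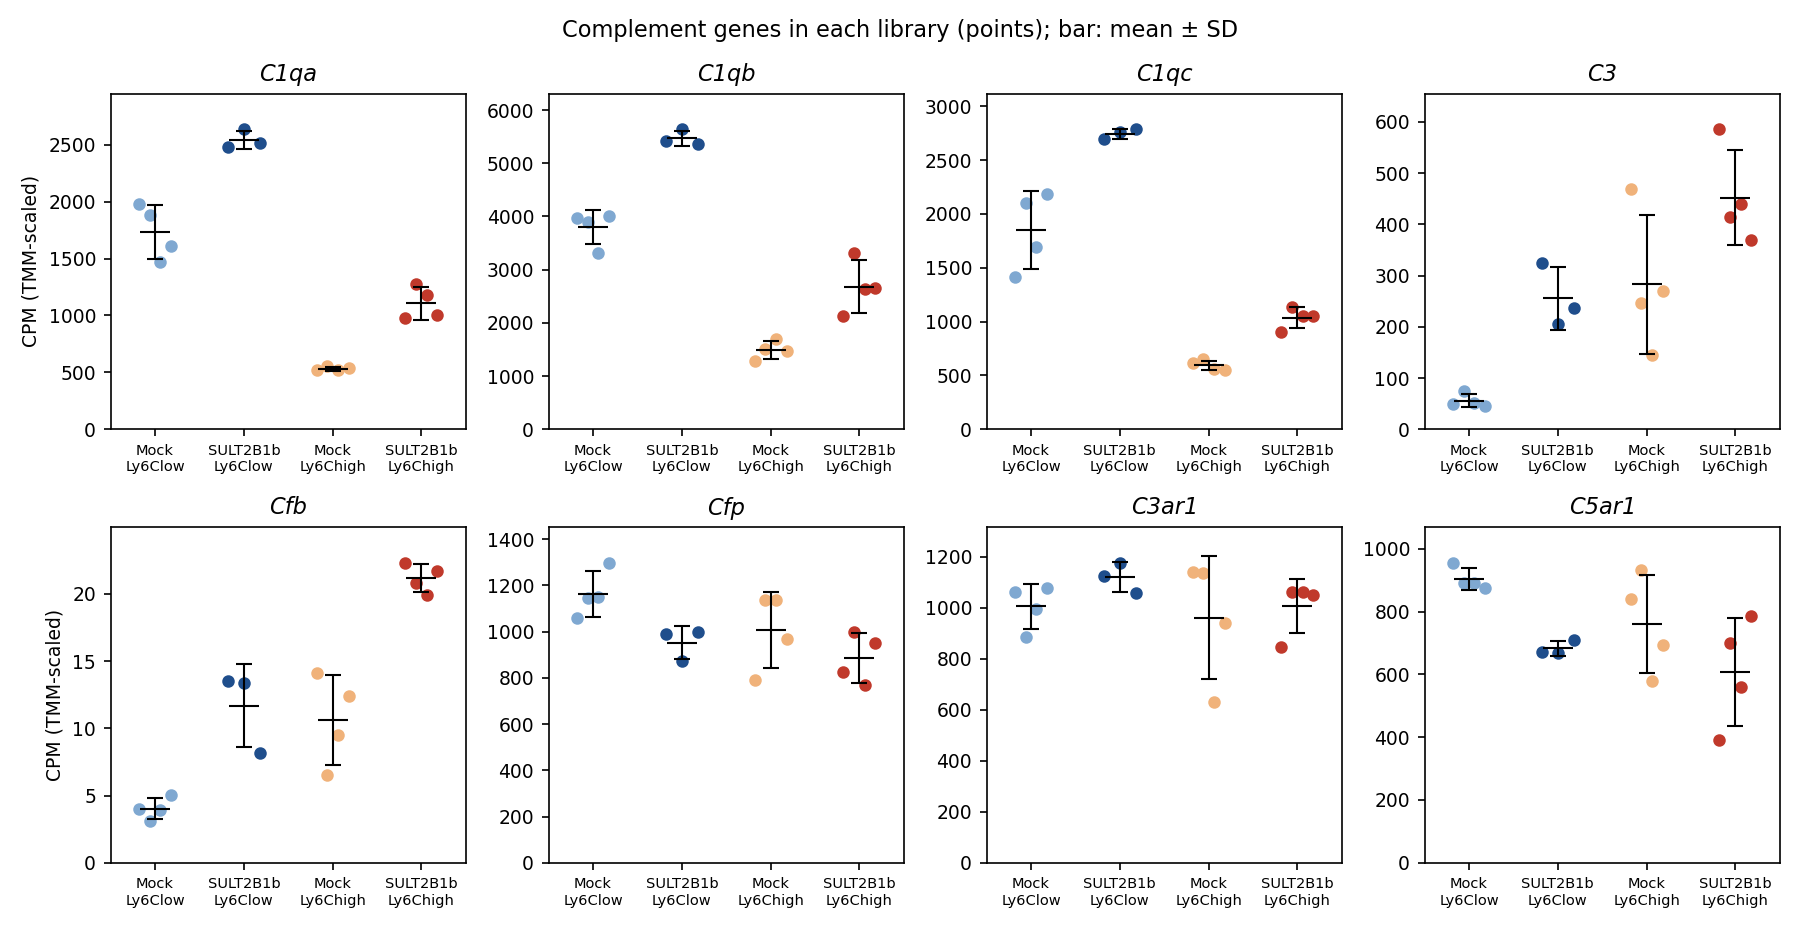
Level of each of the 8 genes in every library, in CPM on TMM-scaled library sizes (y axis, a separate scale for each gene), by group (x axis). Points are libraries and bars are group means ± SD. C1qa, C1qb and C1qc were lowest in Mock-LLC Ly6Chigh libraries, and C3 and Cfb were lowest in Mock-LLC Ly6Clow libraries. For Cfp, C3ar1 and C5ar1, the ranges of groups next to each other in the order of their means overlapped, an order that differs from that of the x axis.

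Between tumour types in Ly6Chigh cells, all 3 C1q genes were higher in SULT2B1b-LLC, where 1.62% of all genes were called in either direction and 0.891% higher. C1qa was 2.08-fold higher (log2 1.06, SE 0.11, adjusted p = 0.000331), C1qb 1.80-fold (log2 0.85, SE 0.12, adjusted p = 0.00369) and C1qc 1.75-fold (log2 0.80, SE 0.13, adjusted p = 0.00635). The 8 genes had a median log2 fold change of 0.74 where all genes had 0.03. Without the library of SULT2B1b-LLC tumour 1 the log2 values were 1.13, 0.96 and 0.87, and all 3 stayed past the threshold. A fit of only these groups called C1qa alone, with adjusted p = 0.112 for C1qb and 0.077 for C1qc, and a limma-voom fit with quality weights did not call C1qc (adjusted p = 0.132).

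A few macrophage and fibroblast markers were also called higher in SULT2B1b-LLC Ly6Chigh cells, while the summed levels of both lists overlapped between tumour types. The summed level of 11 macrophage markers, none a complement gene, was 4429 to 5620 CPM in Mock-LLC and 5073 to 6268 CPM in SULT2B1b-LLC Ly6Chigh libraries, and 1 of the 11, Adgre1 (the macrophage antigen F4/80), was called higher. The sum of 8 fibroblast markers was 131 to 726 CPM against 647 to 1518 CPM, with Pdgfra and Dcn called higher, and Fap at 0 in SULT2B1b-LLC. Their part in the C1q difference was not tested.

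Between tumour types in Ly6Clow cells the C1q differences were smaller. C1qa was 1.47-fold higher in SULT2B1b-LLC (log2 0.55, SE 0.12, adjusted p = 0.0419), where 0.638% of all genes were called and 0.507% were higher. C1qb had a log2 fold change of 0.53 (95% interval 0.25 to 0.80, adjusted p = 0.124) and C1qc of 0.57 (0.29 to 0.85, adjusted p = 0.086), neither past the threshold, although the ranges of the groups did not overlap, as for 16.1% of all genes. Macrophage markers summed to 6142 to 6446 CPM in Mock-LLC and 7234 to 7635 CPM in SULT2B1b-LLC Ly6Clow libraries, with 0 of 11 called in this comparison. Monocyte markers summed to 2517 to 3077 CPM in Mock-LLC and 2134 to 2473.5 CPM in SULT2B1b-LLC Ly6Clow libraries, and 1 of 7, Vcan, was called lower in SULT2B1b-LLC (log2 -1.91, adjusted p = 0.00118). The part of either list was not tested.

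The C1qa call in Ly6Clow cells was close to the threshold and was lost when single libraries were left out. Its adjusted p was 0.192 and 0.117 without the Mock-LLC Ly6Clow library of tumour 3 or 4, and 0.134, 0.412 and 0.28 without the SULT2B1b-LLC Ly6Clow library of tumour 2, 3 or 4. It was 0.0817, 0.0675 and 0.092 without the Mock-LLC Ly6Chigh library of tumour 1, 2 or 4, and 0.0644 without the SULT2B1b-LLC Ly6Chigh library of tumour 4. Over all 15 such fits the log2 value stayed between 0.51 and 0.64. C1qb passed without the SULT2B1b-LLC Ly6Chigh library of tumour 1 (log2 0.55, adjusted p = 0.028). DESeq2 and both limma-voom fits called all 3 chains higher.

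Between populations, the C1q genes were lower in Ly6Chigh than in Ly6Clow cells of the same tumour type, in every tumour with libraries of both. In Mock-LLC tumours C1qa was 3.26-fold lower (log2 -1.71, SE 0.11, adjusted p = 1.99e-07), C1qb 2.55-fold lower (adjusted p = 8.11e-06) and C1qc 3.12-fold lower (adjusted p = 1.82e-06), where 8.41% of all genes were called and 4.86% were lower. In SULT2B1b-LLC tumours C1qa was 2.30-fold lower (log2 -1.20, SE 0.12, adjusted p = 2.87e-05), C1qb 2.04-fold lower (adjusted p = 0.000385) and C1qc 2.65-fold lower (adjusted p = 2.64e-05), where 2.64% were called and 1.54% were lower. These 6 calls held under every alternative fit run. Within single tumours the C1qa level was 2.83 to 3.82 times as high in Ly6Clow as in Ly6Chigh cells in 4 Mock-LLC tumours and 1.94 to 2.52 times in 3 SULT2B1b-LLC tumours.

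The test of whether the population difference itself depended on the tumour type (the interaction) called 0 of the 8 genes in edgeR, against 0.0145% of all genes. For C1qa the difference of log2 fold changes was 0.51 (95% interval 0.17 to 0.85, unadjusted p = 0.00609, adjusted p = 0.463). Macrophage markers moved with the population too: 5 of 11 were called lower in Ly6Chigh cells of Mock-LLC tumours and 3 of 11 in SULT2B1b-LLC tumours, with 1 (Fcgr1, a high-affinity Fc receptor) called higher in each. Monocyte markers moved the other way, with 4 of 7 called higher in Ly6Chigh cells of both tumour types. Their part was not tested.

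**Figure D2:**
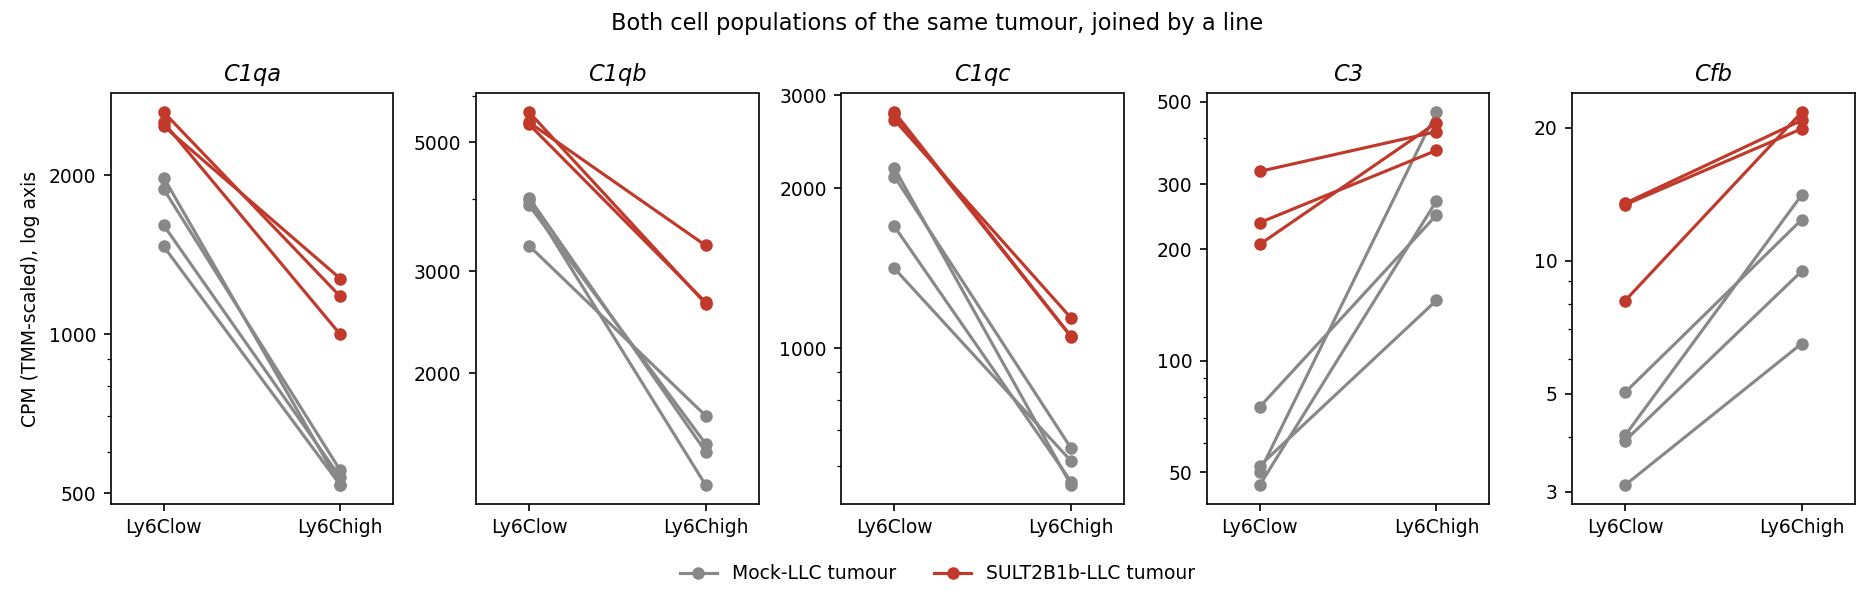
Levels of C1qa, C1qb, C1qc, C3 and Cfb in CPM (y axis, log scale) in the Ly6Clow and Ly6Chigh cells (x axis) of each of 7 tumours; each line joins the libraries of 1 tumour. C1qa, C1qb and C1qc were lower and C3 and Cfb higher in Ly6Chigh than in Ly6Clow cells along all 7 lines.

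Per exon base, the group means of the ratios between C1q transcripts spanned a narrower range than the levels themselves. C1qb was 2.11 ± 0.211 (SD, n = 4) times the level of C1qa in Mock-LLC Ly6Clow, 2.68 ± 0.315 (n = 4) in Mock-LLC Ly6Chigh, 2.06 ± 0.0265 (n = 3) in SULT2B1b-LLC Ly6Clow and 2.31 ± 0.236 (n = 4) in SULT2B1b-LLC Ly6Chigh cells. C1qc to C1qa was 0.585 ± 0.145, 0.601 ± 0.0395, 0.582 ± 0.0162 and 0.506 ± 0.0411 in the same order. C1qb, the most abundant, averaged 1368 to 5029 RPKM (CPM per kilobase of exon) over the groups, and C1qc, the least abundant, 307 to 1422 RPKM.

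C3 was ordered differently: it was lowest in Mock-LLC Ly6Clow cells and higher in the other groups. In Ly6Clow cells it was at 50.2, 75.1, 52.1 and 46.2 CPM in Mock-LLC tumours 1 to 4 and at 324.6, 206 and 236 CPM in SULT2B1b-LLC tumours 2 to 4. In Ly6Chigh cells it was at 469, 247, 145.5 and 269.9 CPM in Mock-LLC tumours and at 585, 415, 439 and 369.7 CPM in SULT2B1b-LLC tumours. Only the step from Mock-LLC Ly6Clow to the next group, SULT2B1b-LLC Ly6Clow, was free of overlap, as for 16.1% of all genes. In Ly6Clow cells C3 was 4.57-fold higher in SULT2B1b-LLC (log2 2.19, SE 0.31, adjusted p = 0.00175), a call that held under every alternative fit. In Ly6Chigh cells the log2 difference was 0.68 (95% interval 0.08 to 1.28, adjusted p = 0.25), not past the threshold.

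Between populations, C3 was 5.06-fold higher in Ly6Chigh than in Ly6Clow cells of Mock-LLC tumours (log2 2.34, SE 0.29, adjusted p = 0.000174), where 3.55% of all genes were called higher. In SULT2B1b-LLC tumours the log2 difference was 0.82 (95% interval 0.16 to 1.48, adjusted p = 0.201), although the ranges did not overlap, as for 19.5% of all genes. Within tumours the Ly6Chigh level was 2.79 to 9.34 times the Ly6Clow level in Mock-LLC and 1.28 to 2.13 times in SULT2B1b-LLC. Of the 8 fibroblast markers, Col1a1 was called higher in Ly6Chigh cells of Mock-LLC tumours, where the sums were 144 to 322 CPM in Ly6Clow and 131 to 726 CPM in Ly6Chigh libraries. In SULT2B1b-LLC tumours Col3a1, Dcn and Lum were called higher, with sums of 52.6 to 150.3 CPM and 647 to 1518 CPM. Their part in the C3 difference was not tested. The interaction for C3 was -1.52 on the log2 scale (95% interval -2.40 to -0.64, unadjusted p = 0.00222). It missed the threshold in edgeR (adjusted p = 0.352) and passed in DESeq2 (adjusted p = 0.0462).

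Beside the C3 difference in Ly6Clow cells, 9 neutrophil markers summed to 46.8 to 61.1 CPM in Mock-LLC and 93.7 to 110.9 CPM in SULT2B1b-LLC, with Csf3r called higher and Ly6g and Ngp at 0 in SULT2B1b-LLC. The 8 eosinophil markers summed to 203 to 270.4 CPM and 300.8 to 389 CPM, with none called. Fibroblast markers ran the other way, 144 to 322 CPM in Mock-LLC and 52.6 to 150.3 CPM in SULT2B1b-LLC, with none called. The part of the neutrophil and eosinophil markers in the result was not tested.

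Cfb, the protease component of the alternative pathway enzyme, had a low measured level. This level may be understated, as most exon bases of Cfb are shared with Gm20547. In Ly6Clow cells it was at 4.03, 3.11, 3.92 and 5.04 CPM in Mock-LLC and at 13.5, 13.4 and 8.13 CPM in SULT2B1b-LLC tumours. In Ly6Chigh cells it was at 14.1, 6.50, 9.48 and 12.4 CPM in Mock-LLC and averaged 21.2 ± 1.05 CPM (SD, n = 4) in SULT2B1b-LLC, from 19.9 to 22.3. The values rest on 49 to 393 counts per library. Mock-LLC Ly6Clow libraries were below all others, SULT2B1b-LLC Ly6Chigh libraries above all others, and the groups between them overlapped. Across the comparisons of groups, ranges were free of overlap for 5.53% to 22.3% of all genes.

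Cfb was 2.64-fold higher in Ly6Chigh than in Ly6Clow cells of Mock-LLC tumours (log2 1.40, SE 0.35, adjusted p = 0.0211). With the tumour as a replicate block this was 1.36 (adjusted p = 0.0642), without the Mock-LLC Ly6Clow library of tumour 2 also 1.36 (adjusted p = 0.0625). In SULT2B1b-LLC tumours the difference was 0.86 (95% interval 0.06 to 1.65, adjusted p = 0.29). Neither comparison of tumour types passed: log2 1.00 (0.26 to 1.73, adjusted p = 0.15) in Ly6Chigh and 1.54 (0.76 to 2.31, adjusted p = 0.0933) in Ly6Clow cells. The latter passed without the Mock-LLC Ly6Chigh library of tumour 2 (log2 1.55, adjusted p = 0.0373), in DESeq2 (0.000239), in limma-voom (0.0153), in limma-voom with quality weights (0.000794) and with only the 2 groups compared (0.0146). The former passed in DESeq2 (log2 1.01, adjusted p = 0.0218).

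Cfp encodes properdin, which stabilises the alternative pathway enzyme, and was plentiful in all groups. It averaged 1163 ± 98.5 CPM in Mock-LLC Ly6Clow (n = 4), 1008 ± 165 in Mock-LLC Ly6Chigh (n = 4), 952 ± 70.3 in SULT2B1b-LLC Ly6Clow (n = 3) and 886 ± 108 in SULT2B1b-LLC Ly6Chigh cells (n = 4). No comparison passed the threshold. The log2 difference between tumour types was -0.19 (95% interval -0.45 to 0.08, adjusted p = 0.525) in Ly6Chigh and -0.29 (-0.57 to 0.00, adjusted p = 1) in Ly6Clow cells.

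C3ar1 encodes the receptor for C3a. Its group means were 1005 ± 87.2 CPM in Mock-LLC Ly6Clow (n = 4), 961 ± 241 in Mock-LLC Ly6Chigh (n = 4), 1120.1 ± 58.8 in SULT2B1b-LLC Ly6Clow (n = 3) and 1006 ± 106 in SULT2B1b-LLC Ly6Chigh cells (n = 4). Between tumour types its log2 difference was 0.07 (95% interval -0.26 to 0.39, adjusted p = 0.895) in Ly6Chigh and 0.16 (-0.20 to 0.51, adjusted p = 1) in Ly6Clow cells. C5ar1, the receptor for C5a, averaged 903 ± 35.3, 761 ± 156, 682.5 ± 23.8 and 608 ± 172 CPM in the same order of groups. Its log2 difference between tumour types was -0.32 (-0.70 to 0.06, adjusted p = 0.425) in Ly6Chigh and -0.40 (-0.82 to 0.01, adjusted p = 1) in Ly6Clow cells. Neither receptor passed in a comparison of populations, where the intervals ran from -0.63 to 0.25 for C5ar1 and from -0.51 to 0.26 for C3ar1. For Cfp and both receptors, groups next to each other in the order of their means overlapped. The ranges of the 2 tumour types in Ly6Clow cells did not overlap for Cfp (871 to 998 CPM in SULT2B1b-LLC and 1060 to 1297 CPM in Mock-LLC) or for C5ar1 (667 to 710 CPM and 875 to 954.5 CPM), as for 16.1% of all genes. There limma-voom with quality weights called Cfp (adjusted p = 0.0278) and C5ar1 (adjusted p = 0.00575) lower in SULT2B1b-LLC, and edgeR on only the 2 groups compared called C5ar1 lower (adjusted p = 0.0099).

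**Figure D3:**
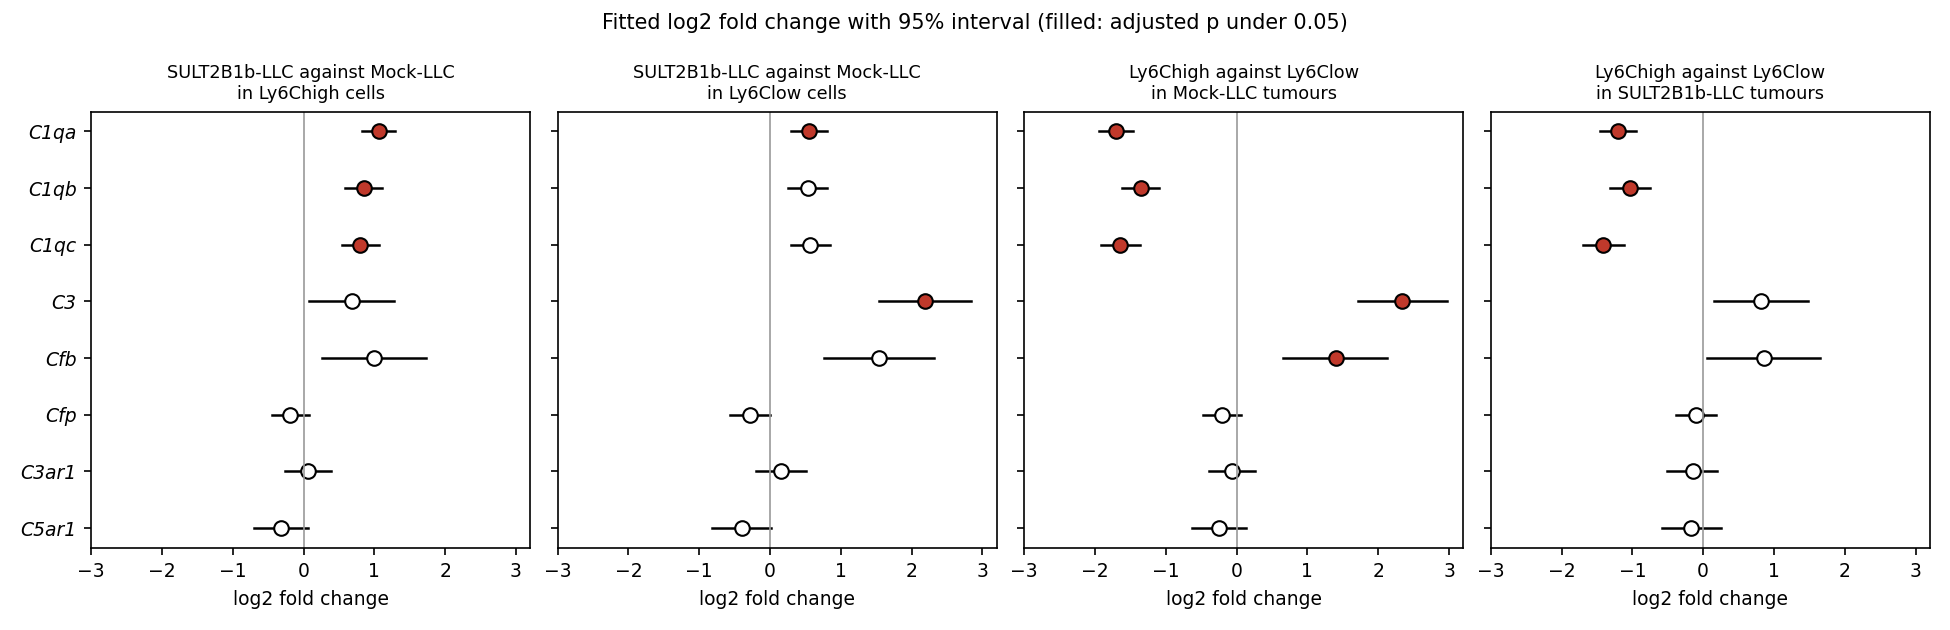
Fitted log2 fold change (x axis) of each of the 8 genes (y axis) in the 4 comparisons of groups, 1 panel each; points are fitted values, lines are 95% intervals, and filled points passed an adjusted p of 0.05. C1qa, C1qb and C1qc lay left of 0 in both comparisons of populations and C3 and Cfb right of it, while the intervals of C3ar1 and C5ar1 crossed 0 in all panels.

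By count, 3 of the 8 genes were called higher (0.891% of all genes) and 0 lower (0.725% of all genes) in SULT2B1b-LLC Ly6Chigh cells. In SULT2B1b-LLC Ly6Clow cells 2 were called higher (C1qa and C3, against 0.507% of all genes) and 0 lower (0.130% of all genes). For the counts of 0, none had an unadjusted p under 0.05 in Ly6Chigh cells and 1 (Cfp) did in Ly6Clow cells, and DESeq2 called 0 lower in both. In Ly6Clow cells limma-voom with quality weights called 2 lower (Cfp and C5ar1), and edgeR on only the 2 groups compared called C5ar1 lower. Between populations, 2 were higher (3.55% of all genes) and 3 lower (4.86% of all genes) in Ly6Chigh cells of Mock-LLC tumours. In SULT2B1b-LLC tumours 0 were higher in edgeR, although C3 and Cfb had an unadjusted p under 0.05 and DESeq2 called both, and 3 were lower. Higher calls made up 1.10% of all genes there and lower calls 1.54%. The median log2 fold change of the 8 was 0.54 between tumour types in Ly6Clow cells (all genes -0.02), and -0.23 (all genes -0.08) and -0.16 (all genes -0.03) between populations in Mock-LLC and SULT2B1b-LLC.

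The rest of the pathway was read from a list of 48 other complement genes, of which 47 were in the table and 25 were tested. Below 1 CPM in every group were 7 of 17 activation genes, 5 of 7 genes of the terminal pathway that forms the membrane pore, and 6 of 13 regulators. Hc, which encodes C5, was among those terminal genes, with a highest group mean of 0.502 CPM (median 0.0575 CPM, 6 counts). By group mean, none of the 10 receptors and binding proteins was below 1 CPM in every group. Cr2 passed only in SULT2B1b-LLC Ly6Chigh cells, at a mean of 2.46 CPM with a median of 0 and a highest library of 9.84 CPM. The regulator Cpn2 passed likewise (mean 1.33, median 0, highest 5.3 CPM). For both, the counts of that group came from the library of SULT2B1b-LLC tumour 1, which had the lowest total. The activation gene Fcnb had a median of 0 CPM in each group. Of the terminal genes only C6 and C8g reached a group mean of 1 CPM. C6 averaged 2.10 CPM in Mock-LLC Ly6Clow and 2.79 CPM in SULT2B1b-LLC Ly6Clow cells. Its highest group mean, 4.09 CPM in SULT2B1b-LLC Ly6Chigh cells, rested on 46 counts. The median there was 0.23 CPM and the highest library, again that of SULT2B1b-LLC tumour 1, was at 15.9 CPM. The highest group mean of C8g was 3.12 CPM.

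**Figure D4:**
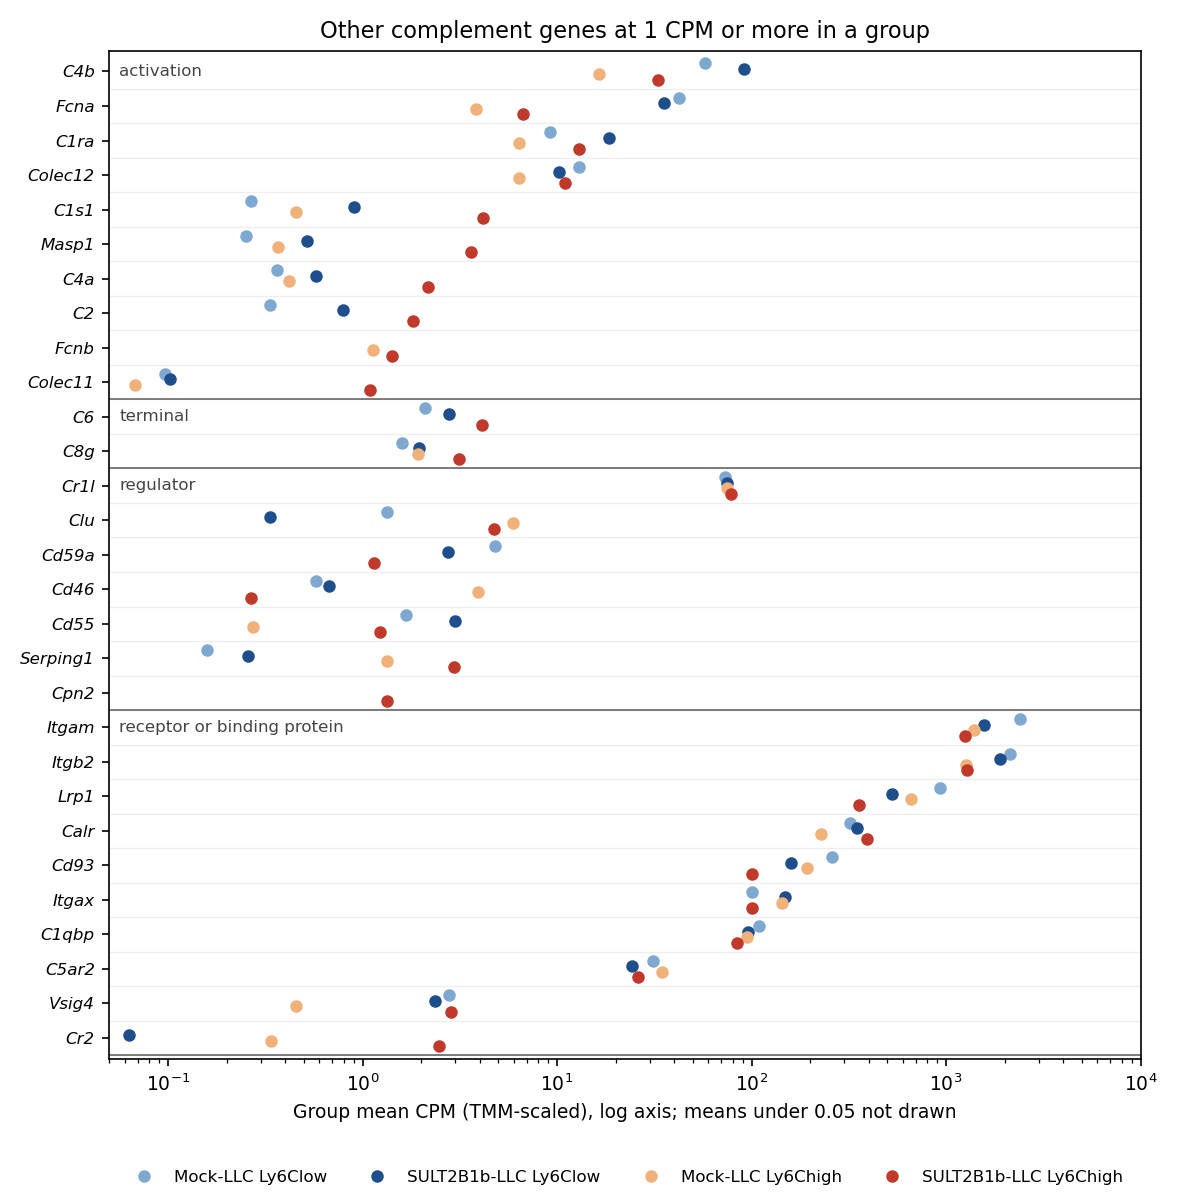
Group mean level in CPM (x axis, log scale) of the 29 other complement genes that reached 1 CPM in at least 1 group (y axis), sorted by role and colour-coded by group; no error is drawn. Receptors and binding proteins spanned the highest levels, and Fcna and C4b lay lower in both Ly6Chigh groups than in both Ly6Clow groups.

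Between tumour types, 2 of the 25 tested genes were called lower in SULT2B1b-LLC Ly6Chigh cells, where 0.725% of all genes were. Cd93, a surface lectin first described as a C1q receptor, was at 177, 235, 189 and 175 CPM in Mock-LLC and 93.5, 141.5, 77.5 and 89.4 CPM in SULT2B1b-LLC tumours (log2 -0.95, SE 0.17, adjusted p = 0.015). Lrp1, an endocytic receptor that takes part in uptake of C1q-coated cells, was at 782, 518, 619.6 and 734 CPM against 311, 318.5, 453 and 343 CPM (log2 -0.90, SE 0.15, adjusted p = 0.0111). The groups did not overlap for either gene, as for 5.53% of all genes. Without the SULT2B1b-LLC Ly6Chigh library of tumour 1, Cd93 was at -0.91 (adjusted p = 0.0285) and Lrp1 at -0.83 (adjusted p = 0.0234). Both calls were lost with only the 2 groups compared (adjusted p = 0.173 for Cd93 and 0.127 for Lrp1) and in limma-voom with quality weights (0.186 and 0.0817). No gene of the list was called higher in edgeR, where 6 had an unadjusted p under 0.05 and DESeq2 called 4. The median over the 25 was 0.80 (all genes 0.03), also with C6 and Cd59a, which had no count in Mock-LLC Ly6Chigh libraries, set to their bound. Of the 25, 17 had a positive value, some resting on few counts. In SULT2B1b-LLC Ly6Chigh libraries Cd55 (13 counts) and Vsig4 (30 counts) had a median of 0 CPM, with their counts in the library of tumour 1. The median over the 25 is not given without the library of SULT2B1b-LLC tumour 1.

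In Ly6Clow cells Lrp1 was again lower in SULT2B1b-LLC, at 524, 525 and 539 CPM against 1134, 974, 857 and 771 CPM (log2 -0.82, SE 0.17, adjusted p = 0.0352), the only gene of the list called in edgeR, where 0.130% of all genes were called lower. DESeq2 and limma-voom, with or without quality weights, each called 3 genes of the list lower. The Lrp1 call held in 5 of 15 fits that each left out 1 library. No filter (adjusted p = 0.116) and a replicate block by number (0.135) each lost the call. It was lost without the Mock-LLC Ly6Clow library of tumour 1, 2 or 3 (adjusted p = 0.153, 0.134 and 0.0926), the SULT2B1b-LLC Ly6Clow library of tumour 2, 3 or 4 (0.245, 0.307 and 0.229), the Mock-LLC Ly6Chigh library of tumour 3 or 4 (0.057 and 0.0684) or the SULT2B1b-LLC Ly6Chigh library of tumour 2 or 4 (0.0699 and 0.0769). Cd93 was at -0.70 (95% interval -1.10 to -0.30, adjusted p = 0.184). No gene of the list was called higher in edgeR, by DESeq2 or at an unadjusted p under 0.05, while limma-voom with quality weights called 3 and edgeR on only the 2 groups compared called 1. The median over the 25 was 0.11 (all genes -0.02).

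In Mock-LLC tumours 5 of the 25 were lower in Ly6Chigh than in Ly6Clow cells, where 4.86% of all genes were called lower. None was higher, also by DESeq2 and at an unadjusted p under 0.05. Fcna, a lectin that opens the lectin pathway, was at 40.0, 33.6, 27.1 and 69.0 CPM in Ly6Clow cells against 3.16, 0.133, 2.44 and 9.60 CPM in Ly6Chigh cells (log2 -3.45, SE 0.76, adjusted p = 0.0113). C4b, a classical and lectin pathway component, was at 47.8, 53.7, 33.7 and 95.9 CPM against 22.6, 14.7, 5.87 and 22.4 CPM (log2 -1.82, SE 0.37, adjusted p = 0.00745). For both, the Ly6Clow libraries lay above all Ly6Chigh libraries, as for 22.3% of all genes in either direction. The C4b call was lost with only the 2 groups compared (adjusted p = 0.0555) and both calls in limma-voom with quality weights (0.176 for C4b and 0.121 for Fcna).

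Of the regulators, Cd59a, which blocks the membrane pore, was at 4.57, 7.28, 4.13 and 3.29 CPM in Mock-LLC Ly6Clow cells and at 0 in all 4 Mock-LLC Ly6Chigh libraries (adjusted p = 0.014). With the tumour as a replicate block the call was lost (adjusted p = 0.0833). Against a floor of 3 counts over the group (0.079 CPM) it was at least 63.6-fold lower. The integrin genes Itgam and Itgb2, whose products form complement receptor 3, were at log2 -0.77 (SE 0.16, adjusted p = 0.00701) and -0.76 (SE 0.12, adjusted p = 0.00121). The median over the 25 was -0.49 (all genes -0.08), also with C6 and Cd59a set to their bound.

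In SULT2B1b-LLC tumours only Itgb2 of the list was lower in Ly6Chigh cells (log2 -0.57, SE 0.13, adjusted p = 0.0251), where 1.54% of all genes were, and none was higher, with 1 (Clu) at an unadjusted p under 0.05 and 0 by DESeq2. The Itgb2 call held in 1 of 15 fits that left out a library, the one without the Mock-LLC Ly6Chigh library of tumour 1, and in the others the adjusted p was 0.0508 to 0.299. Of 10 other settings it held in 4. It was lost with the tumour as a replicate block (adjusted p = 0.054) and with only the 2 groups compared (0.101). Median-ratio factors (0.0761), upper-quartile factors (0.0591), no filter (0.125) and a filter of CPM above 1 (0.0688) also lost it. The median was 0.07 (all genes -0.03). C4b was at -1.47 (95% interval -2.30 to -0.64, adjusted p = 0.0616) and Fcna at -2.39 (-4.01 to -0.77, adjusted p = 0.122). The interaction called 0 of the 25 in edgeR and in DESeq2, with 4 at an unadjusted p under 0.05. The most abundant genes of the list that passed in no comparison were Calr (calreticulin, 320.5 CPM on average), Itgax (CD11c, a gene of the Ly6Chigh gate, 121.5 CPM) and C1qbp (96.0 CPM).

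The genes whose profile over the 15 libraries was closest to each of the 8 were ranked by the root mean square difference of log2 CPM after centring each gene. This is a description over libraries that share groups and depth. Among tested genes other than the 8, Pltp, a phospholipid transfer protein, was closest to each of the 3 C1q genes, at 0.171 for C1qa, 0.211 for C1qb and 0.209 for C1qc, against 0.189 between C1qa and C1qb themselves and 0.214 between C1qa and C1qc. Next among the same genes came Cd63 (0.294) and Pros1 (0.313) for C1qa, Adgre1 (0.24) and Vcp-rs (0.242) for C1qb, and Vcp-rs (0.326) and Cd63 (0.328) for C1qc. Vcp-rs is a Vcp-related sequence, and how reads shared with Vcp were assigned is not given.

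C3 was closest to Slamf7 (0.42), Fgl2 (0.45) and AW112010 (0.466), and Cfb to Irf1, an interferon-responsive transcription factor (0.285), Fgl2 (0.316) and Zbp1, a nucleic acid sensor (0.33). C3 and Cfb differed from each other by 0.548. The profiles of Cfp, C3ar1 and C5ar1 varied little, with an SD over libraries of 0.22, 0.23 and 0.346 on the log2 scale against 1.26 for C3. Their closest genes were Lims1, Eif3k and Psmd8 for Cfp (0.121 to 0.143), Sdha, Shc1 and Sdhd for C3ar1 (0.121 to 0.142), and Api5, Etf1 and Mrpl20 for C5ar1 (0.154 to 0.167).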

How the data were processed

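RNA was measured in 15 libraries of sorted tumour myeloid cells. Per the labels' protocols, RNA went into SMART-Seq v4 libraries, which are unstranded, and reads were single-end. The deposited table holds raw counts per gene symbol, read as such from its whole numbers with differing totals. STAR 2.5.3a, featureCounts and limma on mm10/GRCm38 are named in the submitters' processing notes; annotation and counting options were not given in the sources used here. Depth ran from 2617878 to 39284008 counts, and floors cover counting error only, while 95% intervals come from the fitted spread.

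The counts were tested with edgeR 4.0.16 in R 4.3.3 (filterByExpr, TMM, robust quasi-likelihood fit of the 4 groups together, two-sided tests, Benjamini-Hochberg adjustment), tested on simulated data. The 5 comparisons were tumour types within each population, populations within each tumour type, and their interaction. Alternatives were other scaling factors and filters, DESeq2 1.42.0, limma-voom (3.58.1) with and without quality weights, fits of only 2 groups, replicate blocks and leaving out each library. Counts of the wider list were also taken at a stricter and at a looser threshold. Replicates differed by more than sampling noise (chi-square divided by its degrees of freedom, 20.9 to 91.2).

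Within a tumour type, equal numbers mark the same tumour by the labels; deviations of such pairs correlated at 0.0279 to 0.0936 (Mock-LLC) and -0.0103 to 0.0795 (SULT2B1b-LLC). Across tumour types equal numbers mark separate tumours.

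The 8 genes, the wider list and the marker lists were chosen with earlier results of these data known. Named beside the 8 are wider-list genes past the threshold in a comparison, the 3 most abundant that passed in none, and the 3 genes of closest profile to each of the 8, without Gm or Rik models (log2 CPM with a prior count of 2); Hc, C6 and C8g were named after their values were seen. A result that is not reported here was left out of the wider list's counts.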

Additional observations from a re-analysis of the deposited data

Results flagged for a closer look

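C1qb in the Ly6Clow library of Mock-LLC tumour 3, at 3317.8 CPM, lay far below the other 3 libraries of its group, which were at 3897 to 4015 CPM. C3ar1 in the Ly6Chigh library of SULT2B1b-LLC tumour 1, at 847.8 CPM, lay far below the other 3, which were at 1051.6 to 1063 CPM; that library also had the lowest count total of all. Among 30 sets of 4 libraries examined in this way, 2 stood out, and chance alone sets apart about 1 in 20. No cause was tested.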

How the results depend on the processing

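Each setting named under the methods was run. The calls of C1qa in Ly6Chigh cells between tumour types, of C3 in Ly6Clow cells between tumour types and between populations of Mock-LLC tumours, and of the C1q genes between populations kept direction and threshold in all of them. The count of the 8 genes called higher in SULT2B1b-LLC Ly6Chigh cells (3) was 1 with only the 2 groups compared, 4 with DESeq2 and 2 with quality weights. In Ly6Clow cells the count called higher (2) was 1 with upper-quartile factors, 1 with no filter, 1 with a replicate block by number, 4 with only the 2 groups compared, 5 with DESeq2, 5 with limma-voom, 5 with quality weights and 1 to 3 when single libraries were left out. The count called lower there (0) was 2 with quality weights and 1 with only the 2 groups compared. Between populations the count called higher in Mock-LLC tumours (2) was 1 with no filter, 1 with only the 2 groups compared, 1 with the tumour as replicate block and 1 to 2 when single libraries were left out. In SULT2B1b-LLC tumours that count (0) was 2 with DESeq2, and the interaction count called lower (0) was 1 with DESeq2. The block by tumour changed no other call of the 8 genes. Of the wider list it lost Cd59a in Mock-LLC and Itgb2 in SULT2B1b-LLC. Equal numbers across tumour types mark separate tumours, whose deviations correlated at -0.114 to 0.0267.

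Near 0, signs of uncalled values turned. C3ar1 between populations of Mock-LLC tumours (log2 -0.06) was 0.06 with median-ratio factors and with DESeq2, 0.02 with a filter of CPM above 1, 0.03 with only the 2 groups compared and -0.10 to 0.16 when single libraries were left out. C3ar1 in Ly6Chigh cells between tumour types ran from -0.09 to 0.16 when single libraries were left out, and its interaction was 0.01 with quality weights and 0.02 with the tumour block. Cfp between populations of SULT2B1b-LLC tumours was 0.01 with median-ratio factors and with DESeq2, and -0.14 to 0.01 when single libraries were left out, while C5ar1 there ran from -0.27 to 0.05. The interactions of Cfp and C5ar1 ran from -0.02 to 0.16 and -0.09 to 0.23. Median-ratio factors shifted the median of all genes by 0.13 and 0.11 between populations in Mock-LLC and SULT2B1b-LLC. The cause of these changes was not tested.

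Over the fits with all libraries, all genes called higher and lower between tumour types ran from 3 to 569 and 0 to 423 in Ly6Chigh cells, and from 47 to 414 and 10 to 294 in Ly6Clow cells. Between populations they ran from 334 to 1032 and 271 to 1692 in Mock-LLC, and from 96 to 541 and 95 to 424 in SULT2B1b-LLC. Wider-list genes called lower ran from 0 to 2, 0 to 3, 3 to 10 and 0 to 4 in the same order of comparisons. Unlike the ranges before, these also take in the main fit at a stricter and at a looser threshold on the adjusted p. Depth limits scarce genes most: 3 counts equal 1.14 CPM in the shallowest library and 0.0777 CPM in the deepest.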

Other observations

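Markers of the other cell types listed here were low or moderate. Of these, only the eosinophil markers were set beside a result above. Dendritic cell markers summed to 100.2 to 164 CPM in Ly6Clow and 238 to 388 CPM in Ly6Chigh libraries, with Cd209a called higher in Ly6Chigh cells of both tumour types and Ccr7 in Mock-LLC. Epithelial or tumour cell markers summed to 39 to 145 CPM, with Krt8 called higher in SULT2B1b-LLC Ly6Chigh cells and Cdh1 and Krt8 called lower in Ly6Chigh cells of Mock-LLC tumours. Endothelial markers summed to 9.15 to 73.1 CPM. Mast cell and basophil markers were at 0 in all 4 Mock-LLC Ly6Chigh libraries and reached at most 27.3 CPM elsewhere. Eosinophil markers were at 3.72 to 63.2 CPM in Ly6Chigh libraries and 203 to 389 CPM in Ly6Clow libraries, with 5 of 6 tested genes called lower in Ly6Chigh cells of Mock-LLC and 4 of 6 of SULT2B1b-LLC tumours; the part of this in the population differences of complement genes was not tested.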
